A study of Caenorhabditis elegans with 2 samples.

Results

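The genes followed here encode 7 transcription factors that set the fate of the touch receptor neurons and of the PVD neuron in Caenorhabditis elegans: mec-3, unc-86, alr-1, egl-44, egl-46, zag-1 and ahr-1. They were taken by name, 7 of 19973 protein-coding genes on nuclear chromosomes, for their known roles. Earlier results of these data were known when they were chosen. For each gene, every region was collected whose summit lay between 5000 bp upstream of the annotated gene 5′ end and the gene end. The study mapped the binding of MEC-3 by chromatin immunoprecipitation and sequencing (ChIP-seq) with an antibody against GFP. It used 1 group of 2 biological replicates, numbered 1 and 2 in the labels. Both came from hermaphrodite strain OP55, genotype unc-119(ed3) III with the integrated transgene wgIs55, which stably expresses MEC-3 with a GFP-FLAG tag at its C terminus. Both replicates thus carry the unc-119(ed3) allele and the transgene, and each is whole late embryos taken 4 h after egg bleaching. A control sample was not analysed here. Candidate region lists were deposited for replicate 1, for replicate 2 and for both together (the pooled list), all reaching down into background. A final list was made from the candidates with the irreproducible discovery rate (IDR), which scores how alike regions rank in the replicates.

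MEC-3 is a LIM homeodomain protein and UNC-86 a POU homeodomain protein. UNC-86 switches on mec-3, and the 2 proteins then bind DNA together, at the mec-3 promoter to keep it active and at promoters of touch receptor genes. ALR-1, an Aristaless-type homeodomain protein, makes touch receptor differentiation reliable. EGL-44, a TEA domain protein, and EGL-46, a zinc finger protein, act together to repress touch receptor genes in the FLP neurons. ZAG-1, a ZEB-type zinc finger homeodomain protein, opposes EGL-44 and EGL-46 and helps keep touch receptor and PVD fates apart. AHR-1, the aryl hydrocarbon receptor of the worm, keeps a touch receptor cell from taking on a branched, PVD-like shape.

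Sequence is printed first for the loci on which the results turn, each 5′ to 3′ on the strand of its gene, read from the RefSeq copy of WBcel235, the assembly of ce11. The mec-3 promoter is shown because it holds the site type of UNC-86 with MEC-3 and no region of any list. The unc-86 stretch holds the strongest pooled summit among the 7 genes, and the others are the strongest pooled regions of egl-46, alr-1 and zag-1, 100 bp either side of the summit. In the first 4, capitals mark each match to AATGCAT (the site type of UNC-86 with MEC-3), ATGCAAAT (the POU octamer) or TAATTA (a homeodomain core). The zag-1 stretch holds none of these, and there the capitals mark the 11 bases centred on the summit.
mec-3 (chrIV:10461868-10462167, minus strand, 300 to 1 bases before the 5′ end): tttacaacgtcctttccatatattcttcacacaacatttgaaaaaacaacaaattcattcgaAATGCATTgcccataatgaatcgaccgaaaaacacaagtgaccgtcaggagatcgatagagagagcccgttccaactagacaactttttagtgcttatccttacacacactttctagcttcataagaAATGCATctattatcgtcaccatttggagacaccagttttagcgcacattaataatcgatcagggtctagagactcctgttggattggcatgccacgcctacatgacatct
unc-86 (chrIII:8216407-8216706, minus strand, 370 to 71 bases before the 5′ end): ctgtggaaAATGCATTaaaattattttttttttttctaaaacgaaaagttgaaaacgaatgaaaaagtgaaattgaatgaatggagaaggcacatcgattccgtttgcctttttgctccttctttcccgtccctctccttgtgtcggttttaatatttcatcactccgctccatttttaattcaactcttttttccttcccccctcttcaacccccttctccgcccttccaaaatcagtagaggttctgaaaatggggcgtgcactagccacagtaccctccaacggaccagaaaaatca
egl-46 (chrV:6684615-6684815, minus strand, outside exons of protein-coding genes): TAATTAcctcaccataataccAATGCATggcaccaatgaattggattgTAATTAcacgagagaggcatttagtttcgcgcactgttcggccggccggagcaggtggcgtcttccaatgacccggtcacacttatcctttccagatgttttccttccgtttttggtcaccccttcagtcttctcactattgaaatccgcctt
alr-1 (chrX:11123840-11124040, minus strand, in an intron, with part of an exon of a protein-coding gene): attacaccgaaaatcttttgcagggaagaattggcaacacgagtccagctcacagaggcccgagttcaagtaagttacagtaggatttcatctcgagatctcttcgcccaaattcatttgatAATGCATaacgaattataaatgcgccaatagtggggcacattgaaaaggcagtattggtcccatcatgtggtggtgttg
zag-1 (chrIV:3859051-3859251, plus strand, in an intron): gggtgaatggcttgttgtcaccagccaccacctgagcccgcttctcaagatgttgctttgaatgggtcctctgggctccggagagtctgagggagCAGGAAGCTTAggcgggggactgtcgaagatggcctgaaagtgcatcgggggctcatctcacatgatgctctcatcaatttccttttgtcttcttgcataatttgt

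Each region carries a signal set by the authors, on a scale that no source used here gives, and comparable only within a list. Ranks are therefore used between lists, with rank 1 the strongest region. The pooled list held 27953 regions (median signal 30.3, lowest 21.8, highest 722), the replicate 1 list 30000 and the replicate 2 list 22464. The final list held 457 peaks with signals of 77.4 or more. The number of reads is not given, so the depth behind each value is unknown, and with whole embryos a site bound in a few cells and a site bound weakly in many cells cannot be told apart.

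No member had a final peak, and 6 of the 7 had pooled candidate regions. Over all 19973 protein-coding genes, 4.12% had a final peak and 80.8% a pooled candidate region in the same kind of window. Longer windows hold more regions, and the members' windows, 7451 to 17029 bp, were above the median of 7027 bp over all genes. Among the 8107 genes with a window of at least 7451 bp these shares were 5.69% and 88.8%. The counts of 0 of 7 and 6 of 7 are thus near the background. In the replicate 1 list 7 of 7 members had a candidate region, against 84.1% of all genes, and in the replicate 2 list 7 of 7, against 76.1%.

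The windows held 27 pooled candidate regions in all: 9 at zag-1, 7 at egl-46, 5 at egl-44, 3 at alr-1, 2 at ahr-1, 1 at unc-86 and 0 at mec-3. Regions of the pooled list have a median width of 444 bp and neighbours can overlap, so the 27 form 21 separate stretches, as the 27953 of the whole list form 24149. Of the 27 summits, 10 lay upstream of the gene, 10 in its introns, 6 in its coding exons and 1 in an untranslated exon. The gene's own 5′ end was the nearest protein-coding 5′ end for 20 of them. From 1000 bp upstream to 500 bp downstream of the 5′ end there was a pooled summit at 2 members, unc-86 and zag-1, against 37.5% of all genes. The median signal of the 27 was 35.2, against 30.3 over the pooled list, and 19 of the 27 were at or above that list's median. Of the 27, 3 ranked in the top 10% of the pooled list, 1 each at unc-86, zag-1 and ahr-1. They make up 11.1% of the 27, near the 10% of all pooled regions that this cut holds by definition.

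**Figure D1:**
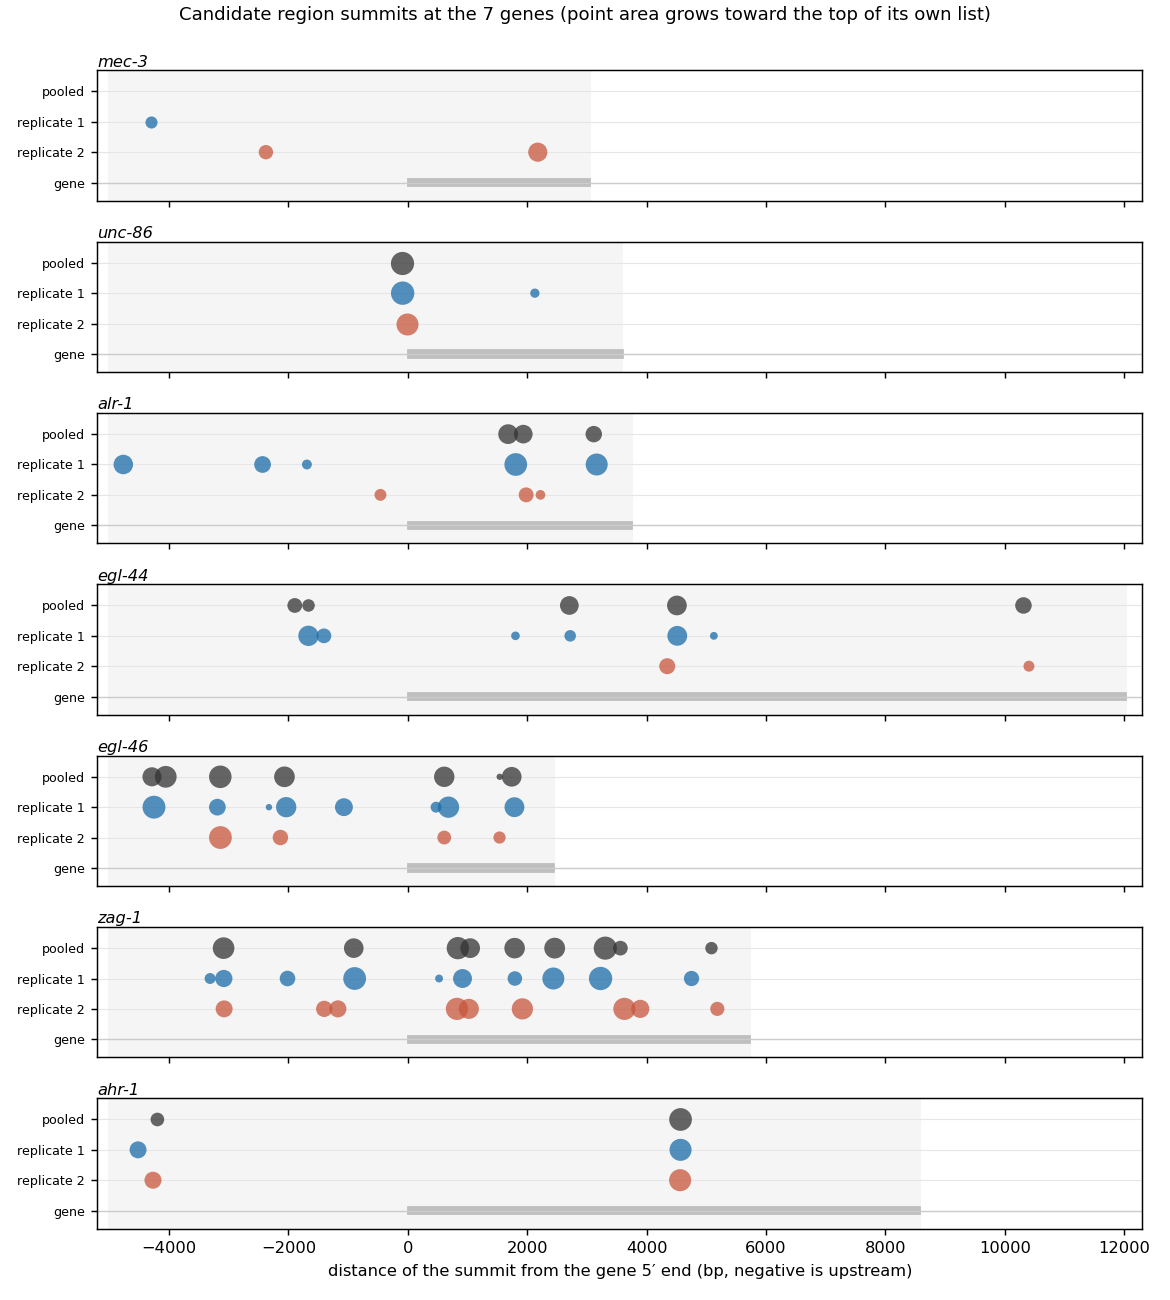
Summits of candidate regions from 5000 bp upstream of the gene 5′ end to the gene end, in bp from the 5′ end, in 1 panel per gene. Rows are the pooled, replicate 1 and replicate 2 lists, and point area grows toward the top of its own list. The bar is the gene and the shaded span its window. The genes zag-1, egl-46, egl-44 and ahr-1 have pooled summits both upstream and in the gene, and mec-3 has no pooled region.

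**Figure D2:**
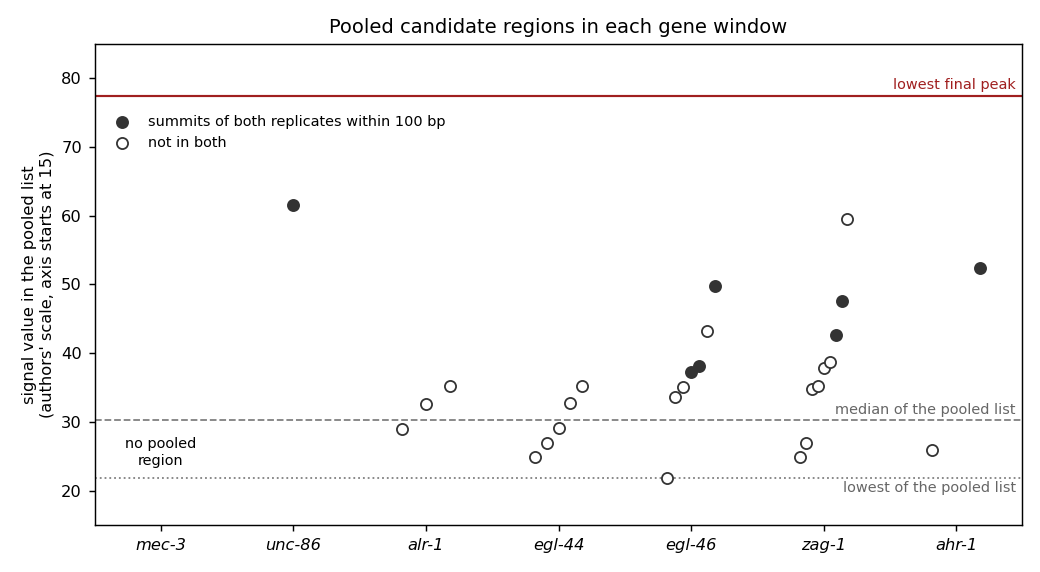
Signal of each pooled candidate region by gene, in the authors' units on an axis that starts at 15. Filled points have a summit of both replicates within 100 bp, the red line is the lowest final signal of 77.4, and the highest member, unc-86 at 61.6, lies below it.

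The mec-3 gene (chrIV:10458816-10461867, minus strand) had no region in the pooled list or the final list. Replicate 1 had 1 summit in the window, 4308 bp upstream of the 5′ end with signal 13.6 (rank 23828 of 30000), inside the neighbouring gene ugt-43. Replicate 2 had 2 summits, 2378 bp upstream with signal 16.6 (rank 15264 of 22464) and 2177 bp downstream in mec-3 itself with signal 20.4 (rank 8347). The −log10 q-values of these 3 regions were 0.0634, 0.0607 and 0.167. For the strongest replicate 2 region of the other genes they were 0.0693 (alr-1), 0.0844 (egl-44), 0.455 (unc-86), 0.474 (ahr-1), 0.515 (zag-1) and 0.777 (egl-46). The replicates had no summit in common in the mec-3 window. Its upstream summits were nearer to the 5′ end of ugt-43, a predicted glucuronosyltransferase gene, than to that of mec-3.

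Around the mec-3 5′ end the pooled list had no summit over 35192 bp, from 19984 bp upstream to 15208 bp downstream. Of the 27947 intervals between neighbouring pooled summits, 59 (0.211%) were at least as long, and 2.62% of protein-coding 5′ ends lay in an interval at least as long. The median interval around a protein-coding 5′ end was 6374 bp. In replicate 1 the interval at mec-3 was 16669 bp (11.7% of 5′ ends lay in one at least as long), and in replicate 2 it was 4555 bp (71.2%). The long interval was therefore a feature of the pooled list and, less so, of replicate 1, and not of replicate 2. Of the 24-mers in the mec-3 window 0.996% occur elsewhere in the genome, against 10.5% over the genome, so the window is nearly all single-copy. The transgene carries mec-3 sequence, and in a region list it and the native gene cannot be told apart. Whether the control used for calling regions carried the transgene is stated in no source used here, and what part either has in the counts at mec-3 was not tested.

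**Figure D3:**
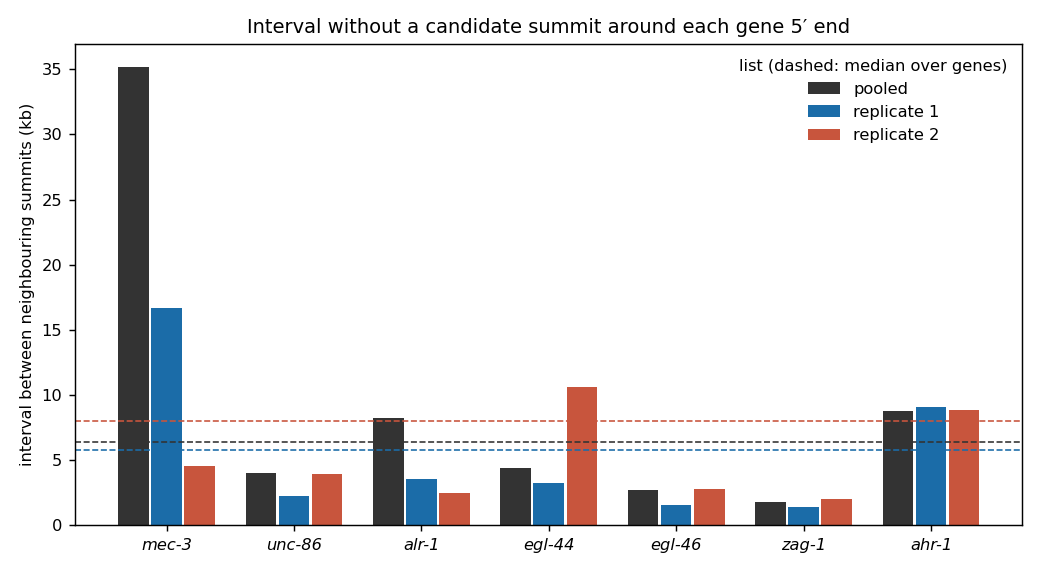
Length in kb of the interval between neighbouring candidate summits that holds each gene's 5′ end, in the pooled, replicate 1 and replicate 2 lists. Dashed lines are each list's median over all protein-coding genes, and mec-3 stands highest in the pooled list at 35192 bp but not in replicate 2 at 4555 bp.

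The mec-3 promoter held 3 matches to AATGCAT, counted on both strands, in the sequence printed above. A palindromic pair, which overlaps in all but its end bases, lies 238 to 231 bases before the 5′ end, and a single match 111 to 105 bases before it. Among all protein-coding promoters of 1000 bp, 13.9% held at least 1 match and 0.621% held 3 or more. AATGCAT was searched as the site type of UNC-86 with MEC-3, proteins already known to bind this promoter. The shares are therefore a description and no independent finding, and the palindromic pair counts as 2 of the 3 matches. The summit nearest to these matches lay 15316 bp away in the pooled list, 4073 bp away in replicate 1 and 2143 bp away in replicate 2.

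The unc-86 gene (chrIII:8212740-8216336, minus strand) had the strongest pooled region of the 7 genes, at its 5′ end. The region chrIII:8216204-8216647 had a signal of 61.6 (rank 1226, in the top 4.39% of the list) and its summit 90 bp upstream of the 5′ end, at base 281 of the printed stretch. Replicate 1 had a summit 87 bp upstream with signal 36.7 (rank 872 of 30000), and replicate 2 one 11 bp upstream with signal 26.5 (rank 3269 of 22464). The region was thus in both replicates within 100 bp of the pooled summit, and stood higher in replicate 1. Its −log10 q-value in the pooled list was 1.28, and the lowest in the final list 1.84. For the strongest pooled region of the other genes it was lower: 1.16 (zag-1), 0.813 (ahr-1), 0.67 (egl-46), 0.199 (alr-1) and 0.199 (egl-44). Another 768 pooled regions lay between the signal of the unc-86 region and the final list, whose lowest signal was 1.26 times as high. A region at least as high lay in the windows of 9.66% of all protein-coding genes. The palindromic pair of AATGCAT matches lies 362 to 355 bases before the 5′ end, 268 bp from the pooled summit, and no match lay within 100 bp of that summit. Replicate 1 alone had a further, weak summit 2128 bp downstream, in unc-86 (signal 12.6, rank 27290).

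At alr-1 (chrX:11121871-11125620, minus strand) the pooled regions lay in the gene and none upstream. They had signals of 35.2 at 1680 bp, 32.7 at 1934 bp and 29.0 at 3115 bp downstream of the 5′ end, the first 2 in introns and overlapping each other, the last in an untranslated exon. Replicate 1 had 5 summits in the window, the strongest at 1808 bp with signal 28.9 (rank 2607). Replicate 2 had 3, the strongest at 1982 bp with signal 16.9 (rank 14548). The strongest regions of the 2 replicates both lay in introns, but in the top 8.69% of replicate 1 and only in the top 64.8% of replicate 2. No pooled region of alr-1 had a summit of both replicates within 100 bp. An AATGCAT match lies 1702 to 1708 bases downstream of the 5′ end, 25 bp from the strongest pooled summit.

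The 5 pooled regions of egl-44 (chrII:5928802-5940830, plus strand) had signals from 24.9 to 35.2. The strongest lay 4508 bp downstream of the 5′ end, in an intron, and 176 bp upstream of the start of shorter transcripts at 4684 bp. The gene is annotated with 13 transcripts and 9 different 5′ ends. Replicate 1 had its nearest summit 6 bp from there with signal 19.97 (rank 9631), and replicate 2 its nearest 162 bp away with signal 17.6 (rank 13095). A pair of AATGCAT matches at 4670 to 4677 bp lies just before those shorter starts, 165 bp from the pooled summit. The other pooled regions lay 1894 and 1664 bp upstream, 2706 bp downstream in an intron, and 10314 bp downstream in a coding exon. Replicate 1 had a summit 1665 bp upstream (signal 20.9, rank 8477), its strongest at the gene, while the replicate 2 list had none upstream of the gene until 6258 bp. No pooled region of egl-44 had summits of both replicates within 100 bp.

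At egl-46 (chrV:6679123-6681573, minus strand) 7 pooled regions lay in 7451 bp, or 9.39 per 10 kb of window. Of all protein-coding genes, 0.951% had as many or more per 10 kb, and 4.79% had 7 or more in the window. The strongest, chrV:6684493-6684936, had a signal of 49.7 (rank 2867) and its summit 3142 bp upstream of the 5′ end. Replicate 2 had its strongest region of the window 2 bp from there, with signal 30.7 (rank 1812), and replicate 1 a weaker one 49 bp from there, with signal 16.4 (rank 16137). Replicate 1 was strongest at another place, 4253 bp upstream, with signal 30.4 (rank 2080), where replicate 2 had no summit within 1000 bp. The replicates thus placed egl-46 alike in their lists, in the top 6.93% and the top 8.07%, at different regions. The other pooled signals were 43.2 at 4056 bp, 38.1 at 2067 bp and 33.6 at 4287 bp upstream, and 37.2, 35.1 and 21.8 at 610, 1740 and 1539 bp downstream, in the gene. The regions at 2067 bp upstream and 610 bp downstream were in both replicates within 100 bp, as was the strongest. The regions at 4056 and 4287 bp upstream overlap, as do those at 1740 and 1539 bp downstream, the last of which ranked 27923. The summit at 4287 bp upstream lay in the neighbouring gene K11G9.5. For the summits at 4287 and 4056 bp the K11G9.5 5′ end was the nearest protein-coding one, 2632 and 2863 bp away. The strongest region held 1 AATGCAT match, 76 bp from its summit, and 2 TAATTA matches, as printed above. The pair of AATGCAT matches 2185 to 2178 bases before the 5′ end lies 114 bp from the pooled summit next to it.

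The zag-1 gene (chrIV:3855843-3861569, plus strand) had the most regions, 9 in 10727 bp, or 8.39 per 10 kb. Of all protein-coding genes, 2.05% had 9 or more in the window, and 2.08% had as many or more per 10 kb. Of the 9, those at 838 and 1044 bp downstream overlap, as do those at 3308 and 3561 bp downstream. The strongest, chrIV:3858929-3859372, lay in an intron 3308 bp downstream of the 5′ end with signal 59.6 (rank 1396, in the top 4.99%). Replicate 1 had its strongest region of the window 79 bp from there, with signal 35.2 (rank 1046). The nearest summit of replicate 2 was 320 bp away, with signal 27.2 (rank 2959). Replicate 2 was strongest in the first part of the gene, at 823 bp with signal 27.5 (rank 2832), where the pooled list had a region in a coding exon at 838 bp with signal 47.5 (rank 3398) and replicate 1 a summit at 916 bp with signal 18.6 (rank 11656). The region at 838 bp and that at 3087 bp upstream, on the non-coding RNA gene F28F9.8 (pooled signal 42.6, rank 4979), were the 2 of the 9 found in both replicates within 100 bp. The others had pooled signals from 24.9 to 38.7, and among them the region 906 bp upstream, on the non-coding RNA genes F28F9.10 and F28F9.16, had signal 34.8 in the pooled list and 29.6 (rank 2357) in replicate 1. AATGCAT and ATGCAAAT had 0 matches each in the whole zag-1 window, and TAATTA had 5, none of them within 100 bp of a pooled summit.

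At ahr-1 (chrI:9522550-9531132, plus strand) the 2 pooled regions both lay nearer to the 5′ end of another gene. The stronger, chrI:9526897-9527340, had signal 52.4 (rank 2370) and its summit 4569 bp downstream of the ahr-1 5′ end, in an intron of ahr-1 and in a coding exon of cylc-2, 322 bp from the cylc-2 5′ end. Replicate 1 had a summit at the same base with signal 25.4 (rank 4250), and replicate 2 one 7 bp away with signal 26.8 (rank 3155). By the larger of its 2 distances this was the closest match among the 27 regions, and it stood at like places in both lists, the top 14.2% and the top 14.04%. Of the 24-mers of this region 21.4% occur elsewhere in the genome, the highest share among the 27, and its part in the signal was not tested. The weaker region, with signal 25.8 (rank 20077), lay 4196 bp upstream in mina-1, where replicate 2 had a summit within 74 bp and replicate 1 none within 100 bp.

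The order of the genes by their strongest region differed between the replicates. In the pooled list it was unc-86 (61.6), zag-1 (59.6), ahr-1 (52.4), egl-46 (49.7), alr-1 (35.2) and egl-44 (35.2), with mec-3 at no region. In replicate 1 unc-86 and zag-1 came first, in the top 2.91% and the top 3.49%, then egl-46 (6.93%), alr-1 (8.69%), ahr-1 (14.2%), egl-44 (28.3%) and mec-3 (79.4%). In replicate 2 egl-46 came first, in the top 8.07%, then zag-1 (12.6%), ahr-1 (14.04%), unc-86 (14.6%), mec-3 (37.2%), egl-44 (58.3%) and alr-1 (64.8%). The order of unc-86, zag-1, egl-46 and ahr-1 among themselves differed between the replicates. At egl-46 the strongest region lay 4253 bp upstream in replicate 1 and 3140 bp upstream in replicate 2. At zag-1 it lay 3229 bp downstream in replicate 1 and 823 bp downstream in replicate 2. At neither gene was it thus the same region in both lists, nor was it at egl-44 and mec-3. The strongest regions of alr-1, egl-44 and mec-3 were in the lower part of at least 1 list. With 2 replicates no test of these ranks was made, and neighbours in the order are not separated.

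**Figure D4:**
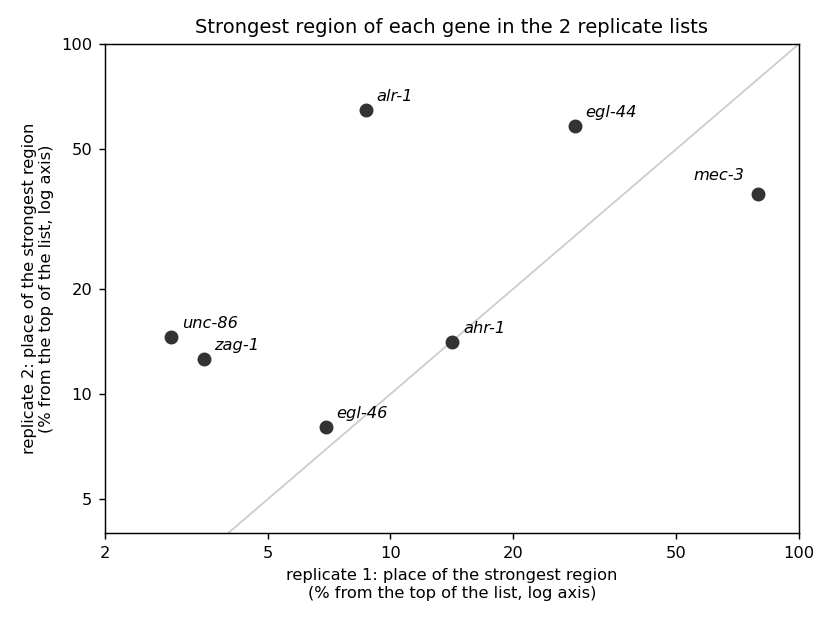
Place of each gene's strongest candidate region in the replicate 1 list (x) and the replicate 2 list (y), as % from the top of the list on log axes, with the line of equal place. The strongest region need not lie at the same place in both lists. The genes egl-46 and ahr-1 lie near the line, unc-86, zag-1, alr-1 and egl-44 stand higher in replicate 1, and mec-3 stands higher in replicate 2.

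Over the 27 pooled regions, 17 had a replicate 1 summit within 100 bp, 14 a replicate 2 summit, 7 both and 3 neither. The 7 were the unc-86 region, 3 at egl-46, 2 at zag-1 and 1 at ahr-1. They make up 25.9% of the 27, against 25.6% of the whole pooled list, a share near the background, and the difference was not tested. The pooled list was made from both replicates, and part of this match is built in. Between the replicates themselves, 7 of the 34 replicate 1 regions had a replicate 2 summit within 100 bp, against 23.4% of all replicate 1 regions. The 7 pooled regions found in both had a median signal of 47.5 and the other 20 one of 33.2, and over the whole list these medians were 42.9 and 27.7.

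Base composition moved with the number of regions. The windows of zag-1 and egl-46, with most regions per 10 kb, had a GC content of 42.3% and 39.1%, the highest of the 7, and that of mec-3 the lowest, 33.4%. The others were at 36.4% (alr-1), 34.9% (ahr-1), 34.8% (egl-44) and 34.6% (unc-86), and the median over all genes was 35.6%. Over the 19973 protein-coding genes, whose windows overlap and share the same libraries, Spearman's rho between window GC and pooled regions per 10 kb was 0.477. Within 100 bp of the summits the 27 regions had a median GC of 46.8%, from 28.4% to 55.7%, against 42.3% over the pooled list. The part of GC content in the counts was not tested.

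AATGCAT lay within 100 bp of 3 of the 27 pooled summits, at alr-1, egl-46 and ahr-1, against 2.54% of all pooled summits. ATGCAAAT lay near 2 of the 27, at alr-1 and egl-46 (1.5% of all), and TAATTA near 1 of 27, at egl-46 (6.18% of all). In promoters of 1000 bp AATGCAT was found at 3 of the 7 genes, mec-3 (where such sites were known), unc-86 and egl-44, beside the 13.9% given above. ATGCAAAT was found at 2 of 7, alr-1 and ahr-1 (8.9% of all promoters), and TAATTA at 2 of 7, mec-3 and ahr-1 (43.0%). The 3 promoters with AATGCAT thus had no pooled summit within 100 bp of the match, and the regions with a match lay more than 1000 bp from the 5′ ends of the members. None of the 20 AATGCAT matches in the 7 windows overlapped a match to either of the other motifs.

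A further list held 21 other genes: lineage factors, Hox genes and their cofactors, partner proteins, and LIM and POU homeobox relatives of mec-3 and unc-86. Of these, 1 had a final peak, beside 4.12% of all genes, and 19 had pooled regions, beside 80.8%. Their windows were 6068 to 19431 bp long. Among genes with a window of at least 7451 bp the shares were 5.69% and 88.8%. The final peak lay in an intron of ldb-1, whose product binds LIM domains. It had signal 77.9 (rank 442, close to the lowest final signal of 77.4) at chrX:11031187-11031630, 2492 bp downstream of the 5′ end. The strongest region of the ldb-1 window ranked 407 in replicate 1 and 423 in replicate 2, though the pooled summit did not have summits of both within 100 bp. The next strongest were in unc-62, a Meis-type cofactor of Hox proteins, with signal 67.5 (rank 830) and 12 pooled regions in 18989 bp, and in lin-11, a LIM homeodomain relative of mec-3, with signal 61.2 (rank 1252). lin-39, a Hox gene, and aha-1, which encodes the partner of AHR-1, had no pooled region. The median of the strongest pooled signal over the 19 genes was 37.2, that over the 6 members with a region 51.1, and that over all genes with a region 37.4. The members' windows are longer than the median window of all genes, and these medians were not compared at like window length or number of regions.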

How the data were processed

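ChIP-seq for MEC-3 was done in 2 replicates. Per the deposited file list, the authors called candidate regions on the alignment of each replicate and of both together, each with a control file not used here, and made the final list from these 3 lists by IDR. The deposited signal of a region (column 7) is the authors' own and was used only within a list. The deposited −log10 of the q-value (column 9) was only quoted. No source used here gives the aligner, caller, read filters, IDR threshold or depth. The ce11 lists were used, and those on ce10 were not, since the annotation at hand (Ensembl release 115) is of WBcel235. All region ends lay within the WBcel235 chromosome lengths. Coordinates are 1-based.

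The 7 genes and the list of 21 others were chosen with earlier results of these data known. All 7 genes are named whatever their values. Of the other 21, those with a final peak and the 3 of highest pooled signal are named, and lin-39 and aha-1 were named after their values were seen. Summits were assigned to windows and matched between lists within 100 bp with Python 3.11.15, numpy 2.4.6 and pandas 2.3.3. Window counts and matches were checked on simulated summits. Multi-copy sequence is the share of 24-mers that occur more than once in the 6 nuclear chromosomes. Motifs were searched on both strands, and a palindromic AATGCATT counts as 2 matches. No test across genes was made, because there is 1 group and the list was not chosen blind. Alternatives were the window, overlap in place of the summit, the nearest gene only, stronger regions only, each replicate alone and other match rules.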

Additional observations from a re-analysis of the deposited data

How the results depend on the processing

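The count of members with a final peak was 0 of 7. Shorter windows, the nearest 5′ end and stronger regions only take subsets of the same peaks, so they could give no other count. It was also 0 for final peaks that overlap the window at any base, and for the top 457 regions of each replicate list. With the promoter window from 1000 bp upstream to 500 bp downstream, the members with a pooled region fell from 6 to 2 and the regions from 27 to 2, since the window leaves out 8 regions more than 1000 bp upstream and 17 more than 500 bp downstream. The number of members with a region was 5 to 7 under the other alternatives, and the number of regions 19 to 34. Each replicate alone gave 7 genes with a region, including mec-3, and 23 to 34 regions. The number of pooled regions found in both replicates depended on the rule: 7 with summits within 100 bp, 3 within 50 bp, 11 within 200 bp, 12 with an overlap of at least 0.5 of the shorter region and 19 with an overlap of 1 bp. The place of the strongest region depended on the list: at alr-1 it was 32.8% from the top of the pooled list, 8.69% in replicate 1 and 64.8% in replicate 2. At zag-1 it fell to 33.9% from the top with the promoter window, and at egl-46 to 27.8% with the window from 2000 bp upstream. No paired analysis was possible because the series has 1 group. Unknown depth, regions of background strength in all candidate lists and 2 replicates limit what can be said of any single region.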
